A study of Mus musculus with 10 samples.

Results

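The AP-1 transcription factor genes and the related stress-response gene *Atf3* were followed in mouse neural retinas after 1 day of bright light. The members are the 4 *FOS* family genes (*Fos*, *Fosb*, *Fosl1*, *Fosl2*), the 3 *JUN* family genes (*Jun*, *Junb*, *Jund*), *Atf3* and *Batf*, taken by gene symbol from the deposited expression table, which gives 9 of its 54532 genes. Expression was measured by RNA-seq in whole neural retinas of BALB/c mice, an albino inbred strain. All mice were 2 months old and had spent 12 hr in the dark before 1 day at 200 lux (normal light, NL, 5 samples numbered 1, 4, 5, 7 and 8) or at 15000 lux (high-intensity light, LD, 5 samples numbered 1, 4, 6, 7 and 8). The methods describe the BALB/c strain used as homozygous for the albino allele of *Tyr* and wild type for *Rpe65*, and the labels give both groups this strain. Values are FPKM, that is, fragments counted on a gene divided by its length and by the library size, so levels of genes of different length can be set side by side.

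AP-1 is a pair of basic leucine zipper (bZIP) proteins that binds DNA as a unit. JUN proteins can pair with themselves or with FOS proteins, whereas FOS proteins do not form stable pairs with themselves, and ATF3 and BATF can pair with JUN proteins. Many of these genes are immediate early genes: growth factors, stress and neuronal activity switch them on through MAP kinases without new protein synthesis. *Fos* is the classical example, JUND is mostly present without a stimulus, and *Atf3* is also a target of the integrated stress response, in which a block of translation raises the factor ATF4. In the retina, AP-1 has long been linked to photoreceptor damage by light.

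Because the members are known for control at their own promoters, the 250 bases before the RefSeq start site (GRCm38.p6) are shown for the 4 members whose RefSeq start lies within 30 bases of the deposited gene start. Capitals mark the 5-letter core TGACG of cyclic AMP and ATF sites, the variant AP-1 site TGACATCA, and TATAAA. Each sequence reads 5′ to 3′ on the strand of its gene, which is the plus strand for *Fos* and the minus strand for the other three.
Fos, chr12:85473640-85473889: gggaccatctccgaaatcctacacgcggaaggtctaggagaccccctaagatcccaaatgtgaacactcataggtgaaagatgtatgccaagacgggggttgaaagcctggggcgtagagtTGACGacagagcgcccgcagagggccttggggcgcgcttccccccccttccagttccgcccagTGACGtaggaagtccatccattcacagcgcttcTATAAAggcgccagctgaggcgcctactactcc
Fosb, chr7:19310046-19310295: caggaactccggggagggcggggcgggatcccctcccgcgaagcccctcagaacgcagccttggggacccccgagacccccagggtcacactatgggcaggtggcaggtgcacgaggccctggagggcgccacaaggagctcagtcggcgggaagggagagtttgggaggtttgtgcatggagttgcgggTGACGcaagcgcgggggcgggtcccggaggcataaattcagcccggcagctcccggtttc
Jun, chr4:95052223-95052472: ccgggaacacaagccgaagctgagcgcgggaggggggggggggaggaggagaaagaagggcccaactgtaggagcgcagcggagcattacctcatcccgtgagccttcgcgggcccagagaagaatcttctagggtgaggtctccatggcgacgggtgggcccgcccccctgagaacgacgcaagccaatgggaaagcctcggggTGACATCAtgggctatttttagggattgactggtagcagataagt
Junb, chr8:84978749-84978998: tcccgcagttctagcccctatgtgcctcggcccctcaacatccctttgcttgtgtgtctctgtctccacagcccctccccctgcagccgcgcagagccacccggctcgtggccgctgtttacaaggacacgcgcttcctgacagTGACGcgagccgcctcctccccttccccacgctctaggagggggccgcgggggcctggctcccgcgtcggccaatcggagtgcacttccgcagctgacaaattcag
TGACG was found at 129 and 66 bases before the start of *Fos*, 60 before that of *Fosb* and 106 before that of *Junb*, and TATAAA at 33 bases before the start of *Fos*. Searched on both strands, TGACG stood in 5 of the 8 member promoters that RefSeq's table holds, the other matches being in *Batf* and *Atf3*, and in 17.8% of all 32851 promoters of that length. G and C made up 46.4% (*Batf*) to 68.8% (*Fosb*) of the bases of the 8, against a median of 52.4% over all promoters. The shares were not matched for this and were not tested. TGACATCA was found only in *Jun* among the 8, at 45 bases before the start, and in 2.93% of all promoters. TATAAA, searched on the strand of the gene, stood in 7.59% of all promoters. The AP-1 site TGACTCA, the full cyclic AMP site TGACGTCA, which holds the core TGACG, and the CArG box of serum response factor were in none of the 8 windows, and in 4.46%, 1.55% and 1.47% of all promoters. Bases farther upstream were not searched, so these genes may hold such sites outside the 250 bases. *Fosl1* was not searched. The deposited starts of *Atf3*, *Jund* and *Fosl2* lie 34706, 1210 and 671 bases from their RefSeq starts, so that those windows may not be the promoters used by the deposited gene models.

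The reads behind each FPKM value were recovered from the value and the gene length. Their total ran from 21343389 to 26832535 over the NL libraries and from 18965090 to 23378090 over the LD libraries. NL-5 and NL-7, LD-1 and LD-7, and LD-4 and LD-6 were closer to each other than any other pairs of their groups (chi-square per gene 2.15 to 2.79, against 8.12 to 27.5 for the other 17 of 20 pairs) but differed by more than sampling noise. They were kept as separate samples, as labelled. The study calls the samples of each group biological replicates, but the sources used here do not say whether each retina came from a different mouse, so p-values measure the spread between these samples. Rod markers were abundant in NL, in keeping with the labelled tissue, and none of the 3 lens markers that could be tested, of 7 listed, was called. The summed level of 8 rod markers was 8630 to 10532 FPKM in NL and 1335 to 2626 FPKM in LD. That of 9 microglia and macrophage markers was 21.6 to 36.6 FPKM in NL and 49.6 to 117 FPKM in LD. Such sums are weighted to the most abundant markers. The microglia marker *P2ry12* was at 2.03 ± 0.278 FPKM in NL and 1.32 ± 0.747 FPKM in LD. By histology, the study saw no obvious degeneration after 1 day of this light. In whole-tissue RNA, fewer cells of a type and less RNA per cell cannot be told apart, and the part of cell composition in the changes of the members was not tested.

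After LD, 7 of the 9 genes rose, none fell, *Jund* was 1.24-fold higher, and *Batf* was too low to enter the test. In this comparison a gene was called if limma, on log2(FPKM + 0.1), gave a Benjamini-Hochberg adjusted p under 0.01 and a change above 2-fold. These rules called 4.13% of the 24508 genes tested higher and 2.37% lower, whereas 7 of the 8 members tested were called higher. In all 9 genes every LD retina lay above every NL retina, which was the case for 11.8% of the genes tested. The median log2 difference was 1.86 over the 8 members tested and -0.01 over all genes tested. *Atf3* and *Junb* had the largest differences, and by size of increase the called members ranked between 111 (*Atf3*) and 991 (*Jun*) of the 24508 genes.

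**Figure D1:**
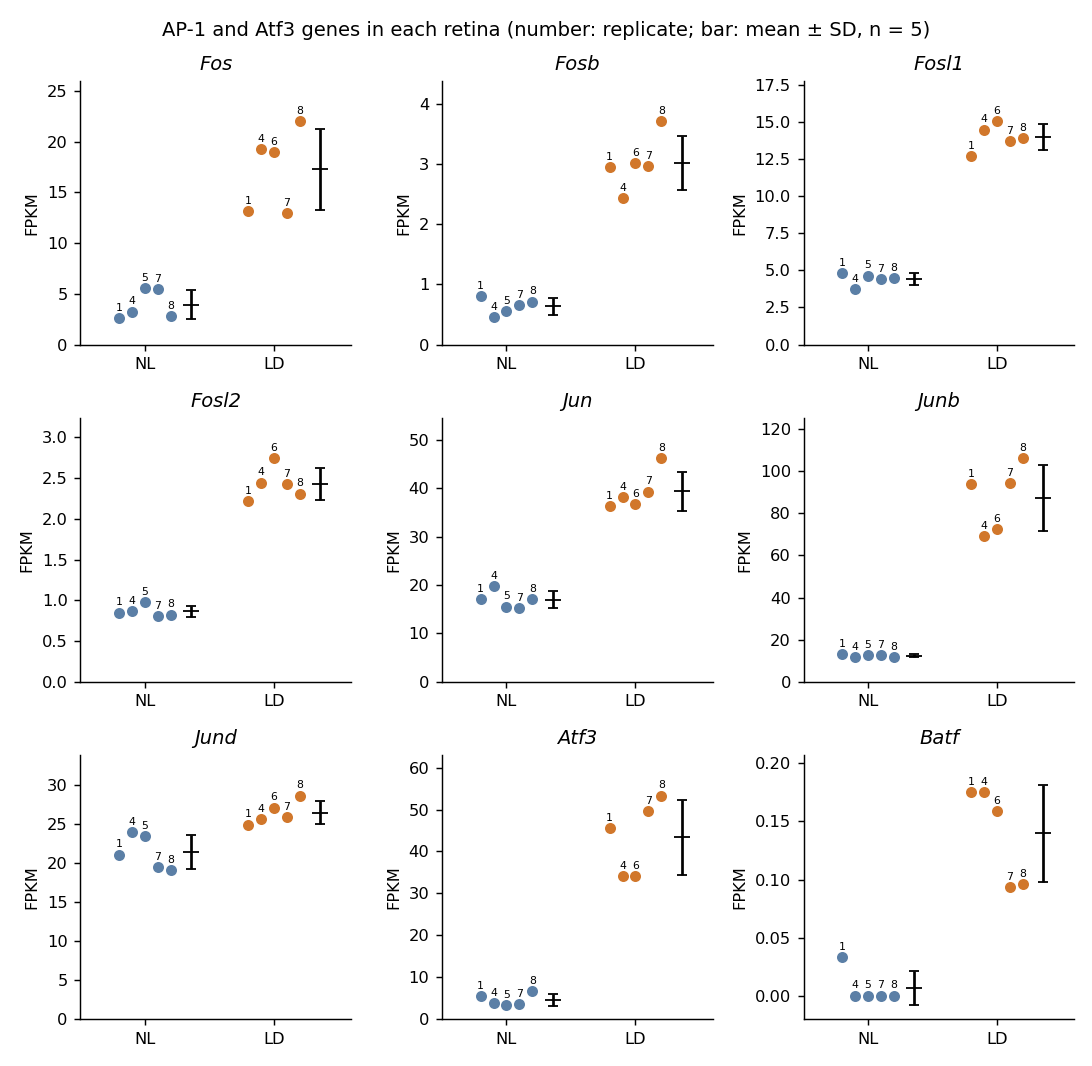
FPKM of the 9 genes in each retina, with 1 panel and 1 linear axis per gene. Points are single retinas with their replicate number, and bars give the mean ± SD of 5 NL (blue) or 5 LD (orange) retinas. No LD point lies at or below an NL point of the same gene, and the NL and LD ranges of *Jund* are the closest.

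*Atf3* encodes a bZIP protein that is low in resting cells and is induced by many kinds of stress. The gene lies at chr1:191170296-191218039 (GRCm38, minus strand). Its level in NL-1, NL-4, NL-5, NL-7 and NL-8 was 5.54, 3.80, 3.25, 3.46 and 6.69 FPKM, and in LD-1, LD-4, LD-6, LD-7 and LD-8 it was 45.6, 34.1, 34.1, 49.7 and 53.4 FPKM. All LD retinas were far above all NL retinas, and within LD the retinas 4 and 6 were the lowest. The mean went from 4.55 ± 1.50 to 43.4 ± 8.90 FPKM (SD, n = 5 each). By limma the log2 difference was 3.26 ± 0.21 (SE), or 9.56-fold, with an adjusted p of 2.31e-06. Behind each NL value stood 142 to 372 reads, and behind each LD value 1489 to 2558.

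Among the *JUN* family, *Junb* rose most, *Jun* rose less, and *Jund* was higher by less than 2-fold. JUN is the founding member of the family, and JUNB and JUND are its paralogs. *Junb* (chr8:84974484-84978718, minus strand) measured 13.1, 11.7, 12.7, 12.7 and 11.6 FPKM in the NL retinas 1, 4, 5, 7 and 8. The LD retinas 1, 4, 6, 7 and 8 measured 94.0, 69.2, 72.5, 94.3 and 106.1 FPKM. The NL values were thus within a narrow range, and the LD values were spread more widely with retinas 4 and 6 at the low end, as for *Atf3*. From 12.4 ± 0.664 to 87.2 ± 15.7 FPKM, the log2 difference was 2.79 ± 0.11 (SE), with a limma adjusted p of 7.48e-08. *Junb* shares 173 of its 2301 exon bases with *Prdx2* on the other strand. *Prdx2* was at 55.9 ± 1.43 FPKM in NL and 64.5 ± 9.51 FPKM in LD, which limma did not call (adjusted p 0.133).

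*Jun* (chr4:95049034-95052222, minus strand) had 17.1, 19.8, 15.5, 15.3 and 17.1 FPKM in the NL retinas 1, 4, 5, 7 and 8, and 36.3, 38.2, 36.7, 39.3 and 46.2 FPKM in the LD retinas 1, 4, 6, 7 and 8. The groups were well apart, and LD-8 was the highest retina. The log2 difference was 1.21 ± 0.08 (SE), with a 95% interval from 1.02 to 1.40 and a limma adjusted p of 3.50e-06. A stretch of 232 of its 3189 exon bases lies opposite the antisense gene *Junos*, which was at 0.371 FPKM in NL and 0.682 FPKM in LD. The library kit does not mark strand, so that reads from such a stretch cannot be assigned to 1 of the genes, here and for the other overlaps.

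*Jund* (chr8:70698949-70700616, plus strand) was the most abundant member in NL, at 21.0, 23.9, 23.4, 19.4 and 19.1 FPKM in retinas 1, 4, 5, 7 and 8. In the LD retinas 1, 4, 6, 7 and 8 it was at 24.9, 25.6, 27.1, 25.8 and 28.6 FPKM. The lowest LD retina, LD-1, was only just above the highest NL retina, NL-4. A log2 difference of 0.31 ± 0.07 (SE), or 1.24-fold with a 95% interval from 1.11 to 1.38, had a limma adjusted p of 0.00826, and the adjusted p stayed under 0.01 in 9 of 23 alternative analyses. The interval excludes a 2-fold change. Over 877 of its 1668 exon bases *Jund* lies opposite *Gm11175*, which was listed at 0 in all retinas. How reads of this stretch were counted is not known. If they were left out, *Jund* is understated in both groups, so its level beside other genes is uncertain.

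The make-up of the *JUN* family transcripts therefore differed between the groups. Their summed level was 50.7 ± 3.26 FPKM in NL and 152.9 ± 19.4 FPKM in LD. *Jund* was the largest share in NL with 42.1% ± 2.13 of the sum, followed by *Jun* with 33.5% ± 2.42 and *Junb* with 24.5% ± 2.12. In LD the order was turned around, with *Junb* at 56.7% ± 3.82, *Jun* at 25.8% ± 2.05 and *Jund* at 17.4% ± 1.96. *Junb* took 52.1% to 60.6% of the sum in the LD retinas and 21.2% to 26.9% in the NL retinas. These shares follow from the gene values above and were not tested again. They are uncertain to the extent that the level of *Jund* is.

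**Figure D2:**
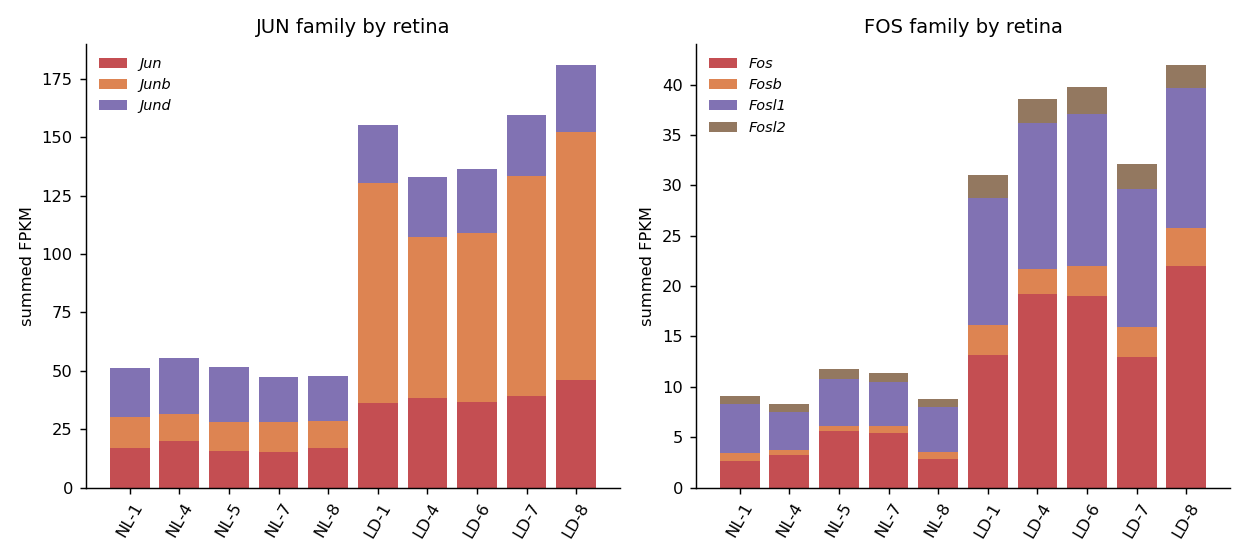
Summed FPKM of the *JUN* family (left) and the *FOS* family (right) in each of 5 NL and 5 LD retinas, stacked by gene on linear axes that start at 0. The *JUN* sum is 47.4 to 55.4 FPKM in NL and 132.9 to 180.8 FPKM in LD, where *Junb* is the largest block.

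All 4 *FOS* family genes rose, *Fos* and *Fosb* by about 4-fold and the FOS-like genes *Fosl1* and *Fosl2* by less. FOS is the short-lived founding member of the family, FOSB includes a stable splice form known from chronically stimulated neurons, and FOSL1 and FOSL2 (FRA1 and FRA2) lack the strong activation domain of FOS. *Fos* (chr12:85473890-85477273, plus strand) was at 2.64, 3.26, 5.57, 5.45 and 2.80 FPKM in the NL retinas 1, 4, 5, 7 and 8. In the LD retinas 1, 4, 6, 7 and 8 it was at 13.2, 19.2, 19.0, 13.0 and 22.0 FPKM. NL-5 and NL-7 were the highest NL retinas and LD-1 and LD-7 the lowest LD retinas, with no overlap between the groups. The mean was 3.95 ± 1.45 FPKM in NL and 17.3 ± 4.01 FPKM in LD, and the log2 difference was 2.14 ± 0.24 (SE, limma adjusted p 9.82e-05).

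*Fosb* (chr7:19302696-19310051, minus strand) measured 0.809, 0.452, 0.560, 0.656 and 0.714 FPKM in the NL retinas 1, 4, 5, 7 and 8, and 2.95, 2.44, 3.01, 2.97 and 3.71 FPKM in the LD retinas 1, 4, 6, 7 and 8. LD-8 was the highest and LD-4 the lowest LD retina, still about 3-fold above NL-1. The gene is a low one, with 60 to 115 reads in each NL and 309 to 516 in each LD library. Its log2 difference of 2.09 ± 0.16 (SE) had a limma adjusted p of 6.74e-06.

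*Fosl2* (chr5:32135801-32157842, plus strand) was at 0.850, 0.871, 0.977, 0.803 and 0.825 FPKM in the NL retinas 1, 4, 5, 7 and 8, and at 2.22, 2.45, 2.74, 2.43 and 2.31 FPKM in the LD retinas 1, 4, 6, 7 and 8. Both groups were tight, and LD-6 was the highest. By limma the log2 difference was 1.39 ± 0.10 (SE, adjusted p 4.46e-06). With a pseudocount of 1 FPKM, which weighs on low genes, it was 0.88 and no longer above 2-fold.

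*Fosl1* (chr19:5447703-5455945, plus strand) had 4.79, 3.75, 4.65, 4.41 and 4.50 FPKM in the NL retinas 1, 4, 5, 7 and 8 and 12.7, 14.5, 15.0, 13.7 and 13.9 FPKM in the LD retinas 1, 4, 6, 7 and 8, with no overlap. The log2 difference of 1.64 ± 0.07 (SE) had a limma adjusted p of 1.37e-07. This value is uncertain as a measure of *Fosl1* itself. In GENCODE release M21, 1163 of the 2033 exon bases of *Fosl1* (57.2%) lie opposite exons of *Ccdc85b*, whereas the deposited gene model of *Ccdc85b* ends before them. *Ccdc85b* was at 76.0 ± 5.78 FPKM in NL and 101.4 ± 13.5 FPKM in LD (log2 difference 0.41 ± 0.09, limma adjusted p 0.00792, under 2-fold). Reads of the long *Ccdc85b* transcript and of *Fosl1* cannot be told apart in these values.

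The sum of the *FOS* family was 9.87 ± 1.55 FPKM in NL and 36.7 ± 4.85 FPKM in LD, and without *Fosl1* it was 5.45 ± 1.43 and 22.7 ± 4.25 FPKM. Of the 4-gene sum, *Fos* held 39.1% ± 8.74 in NL and 46.6% ± 5.02 in LD. The shares of *Fosb* (6.59% ± 1.79 and 8.30% ± 1.33) and *Fosl2* (8.91% ± 1.26 and 6.70% ± 0.799) were small in both groups. The ranges of all 4 shares over the retinas overlapped between NL and LD, unlike those of the *JUN* genes.

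*Batf* encodes a small bZIP protein known from lymphocytes, where it pairs with JUN proteins. It lies at chr12:85686669-85709087 on the plus strand, on the same chromosome as *Fos*. In NL it had 1 read in retina 1 and 0 reads in the other 4, and in the LD retinas 1, 4, 6, 7 and 8 it had 6, 5, 5, 3 and 3 reads, or 0.140 ± 0.0416 FPKM. Every LD retina was thus above every NL retina, at a level of a few reads. Over all retinas 22 reads in LD stood against 1 in NL, a ratio of 21.6 per depth with an exact 95% interval from 3.49 to 891 that covers counting error only. The gene reached 0.1 FPKM in only 3 retinas and was therefore not among those tested. The summed T and B cell markers were 0.822 to 1.28 FPKM in NL and 0.572 to 1.02 FPKM in LD, and *Ms4a1* was at 0 in all retinas. None of the 3 T and B cell markers tested was called.

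For each of the 9 genes, the two-sided exact permutation test over the 10 retinas gave p = 0.00794, the smallest p that 5 against 5 samples allow. Where the groups do not overlap this value is fixed, so it adds nothing to the separation given above. The test also counts the closest pairs of retinas as separate samples.

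Within NL, *Jund* and *Jun* had the highest levels and overlapped each other. *Junb* followed below both, then *Atf3*, *Fosl1* and *Fos* with overlapping ranges, then *Fosl2* and *Fosb*, which overlapped, and last *Batf*. Within LD, *Junb* was above all others, *Atf3* and *Jun* overlapped in second place, and *Jund* came next without overlap. *Fos* and *Fosl1* overlapped below these, as did *Fosb* and *Fosl2* further down. By these values *Atf3* and *Junb* thus stood above *Jund* in every LD retina and below it in every NL retina. The level of *Jund* is uncertain because of its overlap with *Gm11175*.

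Within LD, the retinas that were high in *Fos* were not those that were high in *Junb* and *Atf3*, apart from LD-8. *Fos* was higher in LD-4, LD-6 and LD-8 (19.0 to 22.0 FPKM) than in LD-1 and LD-7 (13.2 and 13.0 FPKM). *Junb* and *Atf3* were instead higher in LD-1, LD-7 and LD-8 than in LD-4 and LD-6, which held 69.2 and 72.5 FPKM of *Junb* and 34.1 FPKM of *Atf3* each. *Egr1*, another immediate early gene, had 14.2, 26.1, 24.9, 15.4 and 27.9 FPKM in the LD retinas 1, 4, 6, 7 and 8, with LD-1 and LD-7 again the lowest. The summed rod markers were 2536 and 2121 FPKM in LD-1 and LD-7, 1335 and 1429 FPKM in LD-4 and LD-6, and 2626 FPKM in LD-8. Microglia and macrophage markers summed to 117 and 102 FPKM in LD-1 and LD-7, to 70.9 and 72.2 FPKM in LD-4 and LD-6, and to 49.6 FPKM in LD-8. As LD-1 and LD-7, and LD-4 and LD-6, are the closest pairs over all genes, the 5 retinas give fewer than 5 distinct patterns, and the part of cell composition in them was not tested. With each close pair averaged into 1 sample, limma still called the same number of members, 7, higher.

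**Figure D3:**
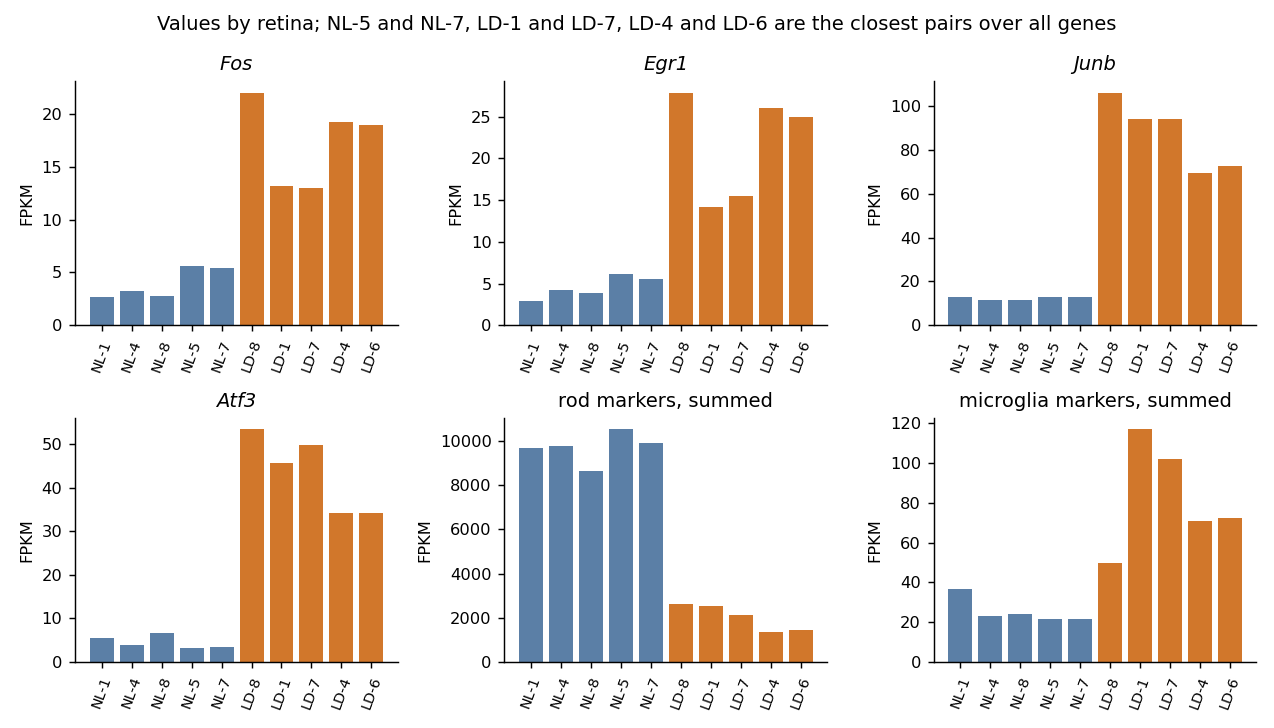
FPKM of *Fos*, *Egr1*, *Junb* and *Atf3* and the summed FPKM of rod and of microglia markers in each retina (NL blue, LD orange, bars from 0, 1 linear axis per panel), with the closest pairs of retinas side by side. *Fos* and *Egr1* are lower in LD-1 and LD-7 than in the other LD retinas, and *Junb* and *Atf3* are lower in LD-4 and LD-6.

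Likeness to each called member was measured among 12689 protein-coding genes whose mean reached 1 FPKM in NL or LD as the root mean square difference of log2(FPKM + 0.1), each gene centred on its NL mean, over the 10 retinas. The gene most like *Fos* was *Egr1*, a zinc finger immediate early gene (distance 0.156), followed by *Cd63* (0.260) and *Parp3* (0.290). Among the genes closest to *Junb* were *Irf9* (0.186), of interferon signalling, and *Clec2d* (0.205), and closest to *Atf3* were *Tlr2* (0.240), *Gbp5* (0.278) and *Trim21* (0.285). *Fosb* was nearest to *Stat2*, *Vcam1* and *Zfp36* (0.176 to 0.184). *Jun* was nearest to *Wfs1*, *Klf6* and *Slc7a1* (0.108 to 0.119), *Fosl1* to *Zfp92*, *Slc47a1* and *Mitd1* (0.110 to 0.131), and *Fosl2* to *Arid5a*, *Psme1* and *Fgd5* (0.0809 to 0.108). Between members the smallest distances were those of *Fosl1* and *Fosl2* (0.205) and of *Fosl2* and *Jun* (0.216), against 0.448 between *Junb* and *Atf3* and 0.474 between *Fos* and *Fosb*. The measure takes in both the step between NL and LD and the scatter between retinas within a group.

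A set of other bZIP genes whose proteins pair with AP-1 or are close to it was divided. Of 15 such genes, all tested, 3 were called higher and 1 lower, with a median log2 difference of 0.32. *Maff*, which encodes a small MAF protein, went from 0.743 ± 0.197 to 3.27 ± 0.220 FPKM (log2 difference 2.03). *Batf2* and *Batf3*, relatives of *Batf* known from myeloid cells, reached 0.601 ± 0.237 and 0.375 ± 0.102 FPKM in LD from 0.0367 and 0.109 FPKM in NL. *Batf2* was under 0.1 FPKM in every NL retina and entered the test only through its LD values. *Nrl*, the bZIP factor that specifies rods, fell from 295.7 ± 21.9 to 49.7 ± 16.8 FPKM. Over all 48 genes that the deposited table places in the bZIP family, 45 were tested and 11 called higher. These were the 7 members, *Batf2*, *Batf3*, *Maff* and *Creb3l1*, and *Nrl* was the only one called lower.

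**Figure D4:**
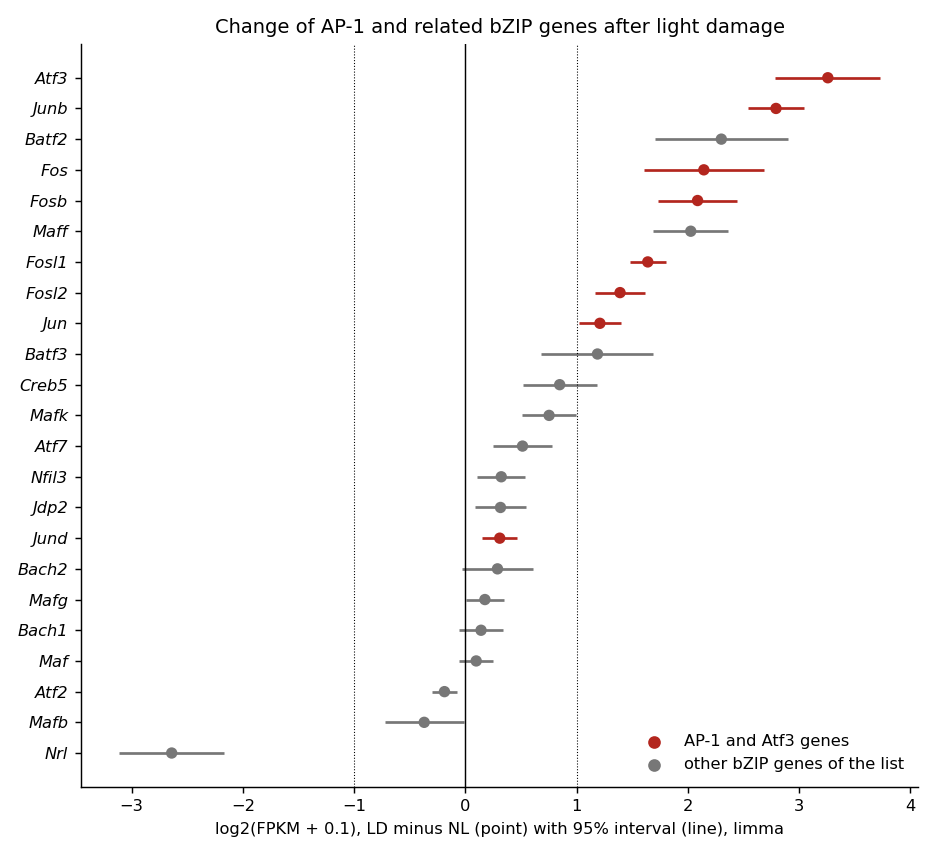
Log2 difference between LD and NL on the scale of log2(FPKM + 0.1), with the 95% interval from limma, for the 8 AP-1 and *Atf3* genes tested (red) and the 15 other bZIP genes of the list (grey); dotted lines mark 2-fold changes. *Atf3* and *Junb* have the largest values, *Jund* lies at 0.31 among genes that were not called, and *Nrl* is at -2.64.

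The integrated stress response was looked at because *Atf3* is one of its targets. Of its 12 listed genes, 3 were called higher and none lower (median log2 difference 0.62). At a limma adjusted p under 0.05 with any fold, 8 were higher and 2 lower, against 3543 and 3275 of all 24508 genes tested. The 2 lower genes were *Ddit4* (log2 difference -0.72) and *Vldlr* (-0.93). The called genes were *Cebpb* (log2 difference 2.27), a bZIP factor also known from inflammation, *Chac1* (2.13), which degrades glutathione, and *Asns* (1.35), which makes asparagine. *Cebpb* is not in the bZIP family as deposited, so the family counts above leave it out. Transcripts of *Atf4* itself were at 85.7 ± 3.90 FPKM in NL and 85.0 ± 10.7 FPKM in LD (log2 difference -0.02, limma adjusted p 0.890), and ATF4 is controlled mainly at translation, which was not measured.

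The regulators and kinases that act on AP-1 genes and proteins mostly stayed below the threshold. Of 10 regulators of immediate early promoters, all tested, 1 was called. That gene was *Elk3*, a ternary complex factor that works with serum response factor, at 0.758 ± 0.0567 FPKM in NL and 2.23 ± 0.500 FPKM in LD. None of 21 MAP kinases and their upstream kinases was called at 2-fold, and at a limma adjusted p under 0.05 with any fold 5 were higher and 5 lower. At that looser threshold 3543 of all 24508 genes tested were higher and 3275 lower. The largest differences among these kinases were those of *Map3k1* (log2 0.91) and *Map3k5* (0.68). Kinase activity is set by phosphorylation, which transcripts do not show.

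Other immediate early genes were divided. Of 17, 6 were called higher and none lower (median log2 difference 0.58). *Egr2* went from 0.0345 ± 0.0398 to 2.93 ± 0.500 FPKM, *Gadd45b* from 5.25 ± 1.15 to 33.4 ± 7.09 FPKM, *Egr3* from 0.222 ± 0.0476 to 1.58 ± 0.153 FPKM and *Egr1* from 4.53 ± 1.28 to 21.7 ± 6.40 FPKM. The other 2 called were *Gadd45g* and *Zfp36*. The remaining 11 did not pass, but at a limma adjusted p under 0.05 with any fold 10 of the 17 were higher and none lower. *Nr4a1* was 2.34-fold higher with every LD retina above every NL retina, and its limma adjusted p was 0.0121. Also uncalled were *Dusp1*, the phosphatase that switches MAP kinases off, at 7.05 ± 1.24 and 5.72 ± 1.13 FPKM, and *Npas4*, a gene of neuronal activity, at 1.22 ± 0.414 and 1.45 ± 0.716 FPKM.

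Most of the textbook AP-1 target genes, many of which have other activators too, were called higher. Of the 24 listed, 21 were tested, 16 were called higher and none lower, against 4.13% higher and 2.37% lower over all genes tested. The list was chosen with earlier results of these data known. Its median log2 difference was 2.44, or 2.55 with the 2 genes at or under 3 reads in every NL retina (*Mmp3* and *Tnf*) set to their lower bound. These 2 genes entered the test only through their LD values, and the listed genes not tested were too low to enter it. *Ccl2*, a chemokine for monocytes, had a log2 difference of 5.85, *Lif*, a cytokine that protects photoreceptors, of 4.50, *Spp1* (osteopontin) of 4.02 and *Plau*, a protease that activates plasminogen, of 3.99. Several of these genes are also expressed by activated macrophages or glia. Of the 9 microglia and macrophage markers 6 were called higher and none lower, with *C1qa*, the highest, at 10.1 ± 3.61 FPKM in NL and 37.3 ± 12.8 FPKM in LD. *P2ry12* (log2 difference -0.74, limma adjusted p 0.122) and *Tmem119* (0.22, limma adjusted p 0.528) were not called. Of the 8 markers of Müller glia and astrocytes, *Gfap* was called higher and *Glul* lower. Of the 7 neutrophil markers, 3 were tested and none was called, with a summed level of 0.477 to 0.995 FPKM in NL and 0.629 to 1.69 FPKM in LD and *Elane* at 0. All 8 rod markers and 4 of 6 cone markers were called lower, while no marker of bipolar, amacrine or ganglion cells, endothelium or retinal pigment epithelium was called. The highest marker of amacrine cells, ganglion cells, endothelium and retinal pigment epithelium was, in this order, *Gad1* (39.2 ± 3.43 and 36.3 ± 5.46 FPKM in NL and LD), *Sncg* (94.0 ± 5.42 and 94.5 ± 9.72), *Kdr* (30.0 ± 4.07 and 49.8 ± 12.8) and *Ttr* (57.6 ± 23.9 and 68.3 ± 17.2). *Kdr* was higher in every LD retina (1.62-fold, limma adjusted p 0.00876) and was left uncalled only by the 2-fold rule. The summed endothelial markers were 40.4 to 51.5 FPKM in NL and 55.8 to 90.6 FPKM in LD. This sum is weighted to *Kdr*, the only 1 of the 6 with a limma adjusted p under 0.05.

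**Figure D5:**
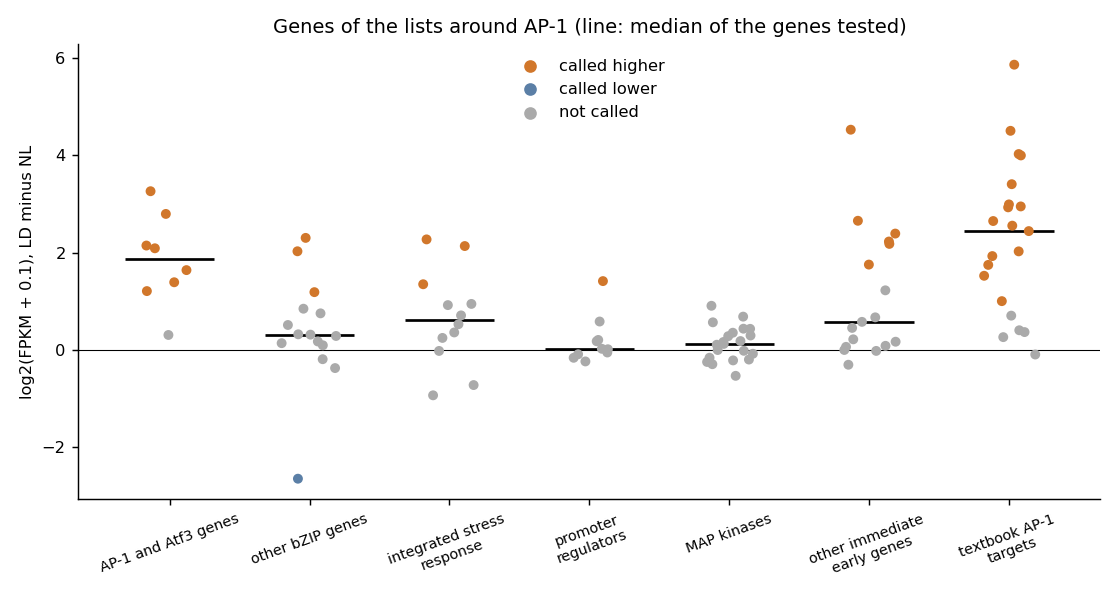
Log2 difference between LD and NL of each tested gene in the 7 lists (points, spread sideways for visibility), coloured by whether limma called it higher (orange), lower (blue) or neither (grey), with the median of each list as a line. The medians are 1.86 for the AP-1 and *Atf3* genes and 2.44 for textbook AP-1 targets. They are 0.32 for other bZIP genes, 0.62 for the integrated stress response and 0.58 for other immediate early genes. For promoter regulators and MAP kinases they are 0.02 and 0.12.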

How the data were processed

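RNA was extracted with TRIzol and libraries were made with a TruSeq RNA kit. The methods name a HiSeq and the design text a NovaSeq instrument, and a company normalized the data. The submitters' processing notes name TopHat2 2.0.9, Bowtie2 2.0.6 and build mm8, but the deposited positions are those of GRCm38 (53499 of the 54409 identifiers found in GENCODE release M21 have the same position). The counting program and annotation are not given in the sources used here. The authors deposited FPKM values that carry a scaling factor per retina, 0.951 to 0.968 in NL and 1.041 to 1.069 in LD. FPKM times length was a whole multiple of 1 read (within 0.01) for 100% of values, which gave the reads per gene.

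From the deposited FPKM, log2(FPKM + 0.1) was fitted for the 24508 genes that reached 0.1 FPKM in 5 or more retinas, with limma 3.58.1 (R 4.3.3) with an intensity trend and no block, over all 10 retinas, and Benjamini-Hochberg adjusted p-values were taken over all of these genes. Fold changes are on that scale and understate those of low genes. Exact permutation tests were two-sided. The fit was tested on simulated data. Replicate numbers shared by NL and LD did not pair the retinas. The members and lists were chosen with earlier results of these data known. The genes named are the members, the 4 called genes with the largest difference in each list around them, the 3 genes most like each called member and the highest marker of a cell type. *Dusp1*, *Npas4*, *Nr4a1*, *Atf4*, *Ddit4*, *Vldlr*, *P2ry12*, *Tmem119*, *Glul* and *Gfap* were named after their values were seen. So were further called genes of short counts and genes that overlap members. Promoters came from RefSeq (GRCm38.p6). The alternatives changed the pseudocount, filter, scaling, trend, test, threshold, block and retinas included. Some genes are not reported here.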

Additional observations from a re-analysis of the deposited data

Results flagged for a closer look

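In 1 of the 18 sets of 5 values (9 genes in NL and in LD) a single retina stood apart from the rest of its group by Dixon's criterion, where chance gives about 1 in 20. For *Batf*, NL-1 was at 0.0333 FPKM, which is 1 read, and the other 4 NL retinas were at 0.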

How the results depend on the processing

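Over 23 alternative analyses, *Fos*, *Fosb*, *Fosl1*, *Jun*, *Junb* and *Atf3* were called higher in all, *Fosl2* in 22 (not with a pseudocount of 1 FPKM, log2 0.88) and *Jund* in 0, with log2 values of 0.27 to 0.44 and adjusted p-values of 7.58e-04 to 0.0606. The number of members called was 7, 6 with a pseudocount of 1 FPKM, and 8 without a filter (with *Batf*) or at an adjusted p under 0.05 with any fold (with *Jund*). Of all genes tested, 1595 were called, against 816 with a pseudocount of 1 FPKM, 6818 at an adjusted p under 0.05 with any fold, 808 with the replicate block (4 shared numbers, against 1182 without the block on the same retinas), and 1379 to 1603 with 1 retina left out. Limma-voom on the recovered reads called 1695. Same-numbered retinas deviated together with correlations of only -0.0893 to 0.0656, only number 4 correlated best with its own number, and the block left 7 members called. Without the factor per retina the median log2 difference of all genes was 0.11 and that of *Jund* 0.44. *Batf* was limited by depth, at 6 reads or fewer per retina.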
